A study of Mus musculus with 2 samples.

Results

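The late muscle-like cells of induced myogenic progenitor cell (iMPC) cultures were examined, the cells in which Acta1, the skeletal α-actin gene of the thin filament, took at least 100 of every 10000 unique molecular identifiers (UMIs, tags that count single RNA molecules). They were chosen by this measured Acta1 level from the cells kept after quality limits, and there were 1241 of them among 14628 kept cells, 1031 of 10758 in the F/R/C+CP library and 210 of 3870 in the F/R/C library. Each was set against the intermediate cells of its own library, with Acta1 from 25 to under 100 per 10000 UMIs, of which there were 966 in F/R/C+CP and 352 in F/R/C. The remaining kept cells, 8761 and 3308, are called the rest.

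Both libraries came from mouse embryonic fibroblasts of the genotype Tg:Pax7-nGFP/C57BL6;DBA2, in which a nuclear green fluorescent protein reports the satellite cell factor Pax7. The fibroblasts of both had received 4 transfections of synthetic MyoD-mRNA in iMPC medium with B18R, an interferon decoy, and 1 clone per medium was profiled. Medium F/R/C+CP, in which 1 of the clones was both derived and maintained, held Forskolin (which raises cyclic AMP), RepSox (a TGF-β receptor inhibitor) and CHIR (which activates Wnt signalling) together with CP, a JAK inhibitor. Medium F/R/C, used for the other clone throughout, lacked CP. Cells were loosened with trypsin and strained to remove myofibers before 10x Genomics 3′ sequencing. With 1 library of 1 clone per medium there is no replicate, medium and library cannot be told apart, and cells of 1 library are not replicates of one another.

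Skeletal muscle cells are built by progenitors that leave the cell cycle, switch on Myog and then the genes of the sarcomere, the repeating contractile unit in which myosin thick filaments pull on actin thin filaments anchored at Z-discs. Differentiating cells fuse into multinucleated fibers and exchange embryonic and perinatal isoforms of contractile proteins for adult ones. Calcium released from the sarcoplasmic reticulum triggers contraction, and creatine kinase and glycolysis supply its energy.

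The promoters of 5 genes whose levels carry the results are shown first, because Acta1 chose the cells, Nmrk2, Myh4 and Casq1 were higher in late cells, and Cck was highest in intermediate cells. They are the RefSeq sequences of the GRCm38.p6 build from 250 bases before to 50 after the start, of Acta1 on chr8:123894726-123895025 (minus strand), Nmrk2 on chr10:81201988-81202287 (minus strand), Myh4 on chr11:67237562-67237861 (plus strand), Casq1 on chr1:172219846-172220145 (minus strand) and Cck on chr9:121495645-121495944 (minus strand). The deposited counts used the GRCm39 build, and no coordinate was carried between builds. Capitals mark E-boxes (CANNTG, the letters that MyoD-family factors can bind), MEF2 motifs and CArG boxes, searched on both strands.
Acta1: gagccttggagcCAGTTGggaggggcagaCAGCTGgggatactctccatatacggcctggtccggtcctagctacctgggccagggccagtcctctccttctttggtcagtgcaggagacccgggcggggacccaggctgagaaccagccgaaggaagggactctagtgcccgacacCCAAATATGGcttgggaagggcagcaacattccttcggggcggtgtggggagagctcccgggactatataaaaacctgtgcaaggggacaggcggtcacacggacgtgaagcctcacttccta
Nmrk2: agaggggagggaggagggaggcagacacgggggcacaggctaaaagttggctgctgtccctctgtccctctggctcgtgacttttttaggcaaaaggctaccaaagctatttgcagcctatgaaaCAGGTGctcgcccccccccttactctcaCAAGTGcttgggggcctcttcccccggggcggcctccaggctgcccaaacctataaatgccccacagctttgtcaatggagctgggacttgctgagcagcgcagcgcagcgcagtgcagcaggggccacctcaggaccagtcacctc
Myh4: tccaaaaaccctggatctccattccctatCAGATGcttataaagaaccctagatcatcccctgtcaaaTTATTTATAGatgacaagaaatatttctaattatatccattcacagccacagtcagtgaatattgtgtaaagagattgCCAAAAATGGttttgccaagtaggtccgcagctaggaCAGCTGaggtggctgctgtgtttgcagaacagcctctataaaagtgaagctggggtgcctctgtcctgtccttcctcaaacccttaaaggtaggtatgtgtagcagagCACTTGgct
Casq1: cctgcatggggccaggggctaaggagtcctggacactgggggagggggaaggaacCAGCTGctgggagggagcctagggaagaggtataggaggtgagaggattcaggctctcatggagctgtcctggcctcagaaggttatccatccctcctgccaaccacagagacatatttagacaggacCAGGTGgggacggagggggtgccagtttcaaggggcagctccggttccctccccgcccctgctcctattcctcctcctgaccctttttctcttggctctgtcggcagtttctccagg
Cck: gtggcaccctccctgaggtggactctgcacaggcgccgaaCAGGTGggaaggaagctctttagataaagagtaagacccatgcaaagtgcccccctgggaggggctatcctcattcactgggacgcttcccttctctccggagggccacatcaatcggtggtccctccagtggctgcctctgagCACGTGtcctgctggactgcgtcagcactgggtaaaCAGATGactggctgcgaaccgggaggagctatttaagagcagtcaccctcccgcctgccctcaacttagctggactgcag
An E-box lay in each of these 5 promoters and in 72.2% of all 27025 promoters of the table, and a CArG box lay in those of Acta1 and Myh4 and in 1.57% of all. Among the 10 genes that were most strongly higher in late cells, 6 had an entry, of which 6 held an E-box and 3 held CAGCTG, a form of E-box found in 16.1% of all promoters. Among the 10 genes most strongly lower, 9 had an entry, of which 5 held an E-box and 0 held CAGCTG. The letters TATAAA lay in 4 of the 6 and 0 of the 9, against 14.2% of all promoters. A match is a description of the letters and shows no binding.

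Acta1 itself, which chose the cells, is given as a description. In late cells of F/R/C+CP the Acta1 level had a median of 146.5 UMIs per 10000 (lowest 100.1, highest 503.9), against 56.9 in intermediate cells and 7.99 in the rest. In late cells of F/R/C the median was 140.8 per 10000 (lowest 100.1, highest 373.9), against 56.9 in intermediate cells and 0 in the rest. The level ran on across the limit without a gap, the cells just inside lying at 100.09 and 100.13 per 10000 and those just outside at 99.95 and 99.91 in F/R/C+CP and F/R/C. In F/R/C+CP, 127 late cells lay under 110 and 120 intermediate cells from 90, and in F/R/C these counts were 32 and 39. Over all kept cells the distribution had a second rise in both libraries. In bins of equal width on the log scale, the number of cells in F/R/C+CP was as low as 132 in the intermediate range and reached 312 in the first bin of the late range. The last F/R/C bin below the intermediate range held 28 cells, and bins held up to 77 cells in the intermediate range and up to 69 in the late range. The limit at 100 thus did not lie in a trough.

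**Figure D1:**
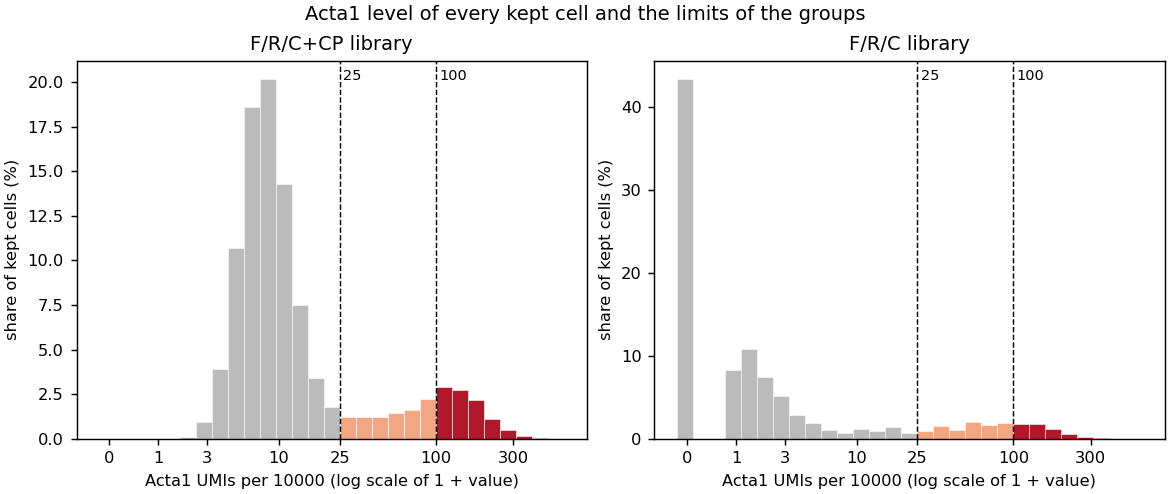
Share of kept cells (%, vertical axis) by Acta1 UMIs per 10000 (horizontal axis, log scale of 1 + value) in the F/R/C+CP library (left) and the F/R/C library (right). Late cells are dark red, intermediate cells are orange and the rest are grey, with dashed lines at 25 and 100. The rest centre near 7.99 per 10000 in F/R/C+CP and at 0 in F/R/C, and a second, lower rise reaches into the late range in both, with 312 cells in the first late bin of F/R/C+CP.

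Late cells were 9.58% of kept cells in F/R/C+CP (95% exact binomial interval 9.03 to 10.2%) and 5.43% in F/R/C (4.73 to 6.19%). These intervals and all others given here cover counting error only. The F/R/C+CP share is a share of deep barcodes, since none of its kept cells had under 12097 UMIs. Kept cells of F/R/C went down to 500 UMIs. The F/R/C share rests on the mitochondrial limit, since 218 of its 438 barcodes at or above 100 Acta1 per 10000 had more than 15% mitochondrial UMIs, and without that limit the share was 9.13%. In F/R/C+CP, 16 of 1130 such barcodes were over that limit.

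Late cells held a median of 41277 UMIs in F/R/C+CP (27511.5 in intermediate cells) and of 7339 in F/R/C (8306.5 in intermediate cells), so depth moved with the groups in opposite directions in the libraries. Summed over cells, the late groups held 44531267 and 1433302 UMIs, and the intermediate groups 30189570 and 2774173. Mitochondrial UMIs made up a median of 5.72% in late cells and 6.51% in intermediate cells of F/R/C+CP, and 11.0% and 11.7% in those of F/R/C. Among the 210 late cells of F/R/C, 32 had under 2000 UMIs, with a median of 969 UMIs and 1.04% mitochondrial UMIs, and these gave 34050 of the UMIs. Barcodes in the top 9.60% of doublet scores made up 9.31% of late cells and 24.1% of intermediate cells in F/R/C+CP. Within F/R/C, barcodes in the top 4.44% made up 2.38% of late cells and 7.39% of intermediate cells. The part of depth in the results was not tested. Of the barcode sequences, 18 occurred in both libraries and 2 of these were late cells in F/R/C+CP.

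The label was checked against the other marker genes of the muscle lineage. Tnnt3, the fast skeletal troponin T, had a median of 31.6 UMIs per 10000 in late cells of F/R/C+CP (lowest 1.69, highest 122.6), against 17.0 in intermediate cells, and 0% of late cells lacked it. The median of Tnnt3 was 19 UMIs per 10000 in late cells of F/R/C (lowest 0, highest 115.5), against 8.84 in intermediate cells. Myh3, the embryonic myosin heavy chain, had a median of 33.0 per 10000 in late cells of F/R/C+CP (lowest 2.46, highest 204.5), against 21.7 in intermediate cells, and of 17.3 in late cells of F/R/C, against 13.6 in intermediate cells. Ckm, the muscle creatine kinase, was sparse, with medians of 0.951 and 0.957 per 10000 in late cells of F/R/C+CP and F/R/C, against 0.534 and 0 in intermediate cells. The single cells of the late and intermediate groups overlapped widely in all 3 genes.

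Markers of several other cell types summed to low levels, while those of smooth muscle or pericytes and of Schwann or neural cells did not, through a gene of each list that muscle cells also express. The 8 smooth muscle or pericyte markers summed to 3759 CPM (counts per 1000000 UMIs of the summed cells) in late cells, 2435 in intermediate cells and 790.9 in the rest of F/R/C+CP, of which Des, the muscle intermediate filament desmin, gave 3660, 2337 and 719.2 CPM. Of these 8, Des was called higher and 4 were called lower, among them Myh11, the smooth muscle heavy chain, at 1.17 and 2.91 CPM in late and intermediate cells. The sums for F/R/C were 3050, 2202 and 653.4 CPM, with Des at 2941, 2121 and 607.4 CPM. These sums leave out Acta2, the smooth muscle α-actin, which was not on the list. Acta2 had a median of 1.14 UMIs per 10000 in late cells of F/R/C+CP (highest 103.4), against 8.25 in intermediate cells. Its medians in late and intermediate cells of F/R/C were 4.43 and 7.002 per 10000. Des was therefore not the only smooth muscle gene counted in these cells. The 8 Schwann or neural markers summed to 595.7 and 711.1 CPM in late and intermediate cells of F/R/C+CP and to 611.9 and 773.9 CPM for F/R/C, of which Nes, an intermediate filament also made by myoblasts, gave 574.4 and 678.3 CPM and 565.8 and 733.6 CPM. The 7 endothelial markers summed to 10.9 CPM in late cells and 11.5 CPM in intermediate cells of F/R/C+CP, and to 8.37 and 7.21 CPM in those of F/R/C. The 7 immune markers summed to 1.39 and 1.92 CPM in late and intermediate cells of F/R/C+CP and to 0.698 and 0.721 CPM in F/R/C, where 6 of the 7 were at 0 in late cells. The 7 melanocyte markers summed to 19.4 and 19.9 CPM in late and intermediate cells of F/R/C+CP, with Tyrp1, which makes melanin, at 1.26 and 1.29 CPM, and Tyrp1 was at 0 in both groups of F/R/C. The 9 connective markers summed to 12.6 CPM in late cells and 34.3 CPM in intermediate cells of F/R/C+CP, and to 17.4 and 19.8 CPM in F/R/C. The 9 cardiac markers summed to 16.8 and 12.2 CPM in late and intermediate cells of F/R/C+CP and to 9.77 and 3.24 CPM for F/R/C.

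Muscle transcripts were also counted in cells of F/R/C+CP outside the muscle groups. There, Pax7-positive cells without Myog or Mymk UMIs had a median of 7.90 Acta1 UMIs per 10000 and cells rich in melanocyte markers 9.74, while Pax7-positive cells of F/R/C had a median of 0. When each cell was thinned to 2000 UMIs, Myh3 was seen in 97.6% of late cells of F/R/C+CP but also in 38.4% of its Pax7-positive cells. It was seen in F/R/C in 88.2% of late cells and 2.47% of Pax7-positive cells. Shares of late cells of F/R/C+CP thinned to 2000 UMIs are therefore given beside the Pax7-positive cells or those rich in melanocyte markers. The Pax7-positive cells were required to lack Myog and Mymk UMIs, so their shares may understate muscle RNA from other cells. At 2000 UMIs, Myh3 was seen in 49.3% of cells rich in melanocyte markers. Myod1 went the other way, in 6.67% of them and 12.8% of Pax7-positive cells. Shares of unthinned cells that lacked a gene have no such group beside them.

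Genes with at least 50 UMIs over the late and intermediate cells of a library were compared by the ratio of their CPM, and a gene was called higher or lower when the ratio was at least 1.5-fold and its exact 95% counting interval left out 1. Because the same cells' Acta1 level chose the groups and there is 1 library per medium, the calls describe these libraries and no p-value is given. In F/R/C+CP, 684 of 12544 genes (5.45%) were called higher in late cells and 3002 (23.9%) lower. For F/R/C, 335 of 6365 genes (5.26%) were called higher and 611 (9.6%) lower. The median log2 ratio of all genes was -0.21 in F/R/C+CP and -0.08 in F/R/C, so a typical gene sat slightly below equality. Under median-of-ratios scaling, which centres the ratios, 1363 genes were called higher and 1914 lower in F/R/C+CP. Of 6361 genes compared in both libraries, 150 were called higher in both, Acta1 included, which is 56.2% of the higher calls among these genes in F/R/C+CP and 44.9% of those in F/R/C. A further 368 were called lower in both, 36.4% and 60.3% of the calls among these genes. Without the top doublet scores, 731 genes were called higher and 2331 lower in F/R/C+CP, and 311 and 545 in F/R/C.

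**Figure D2:**
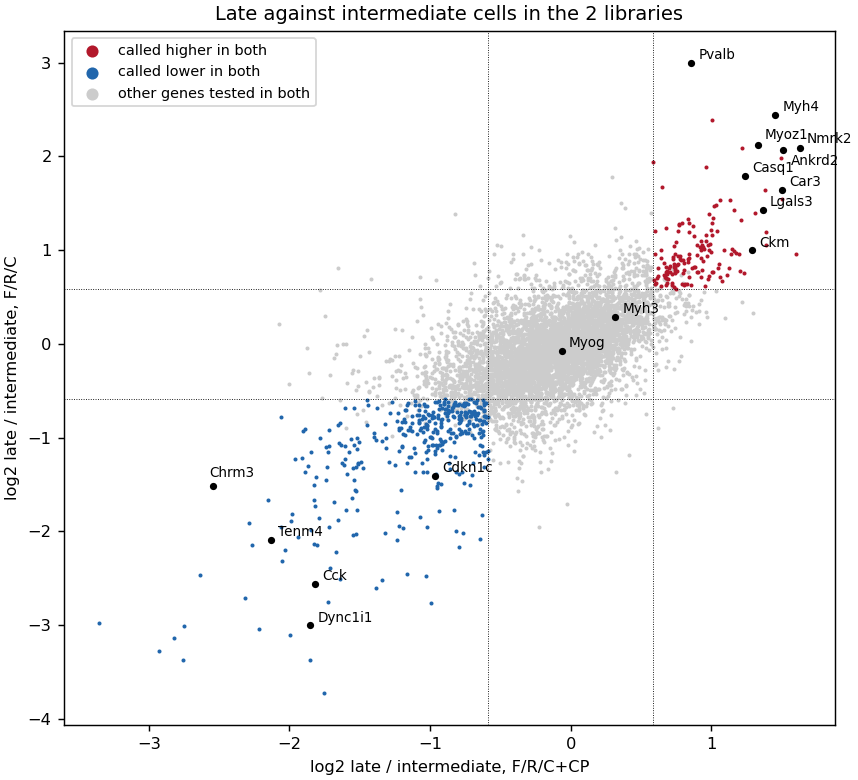
Log2 ratio of late to intermediate cells for each gene compared in both libraries (Acta1 left out), F/R/C+CP on the horizontal and F/R/C on the vertical axis, with dotted lines at 1.5-fold. Red genes were called higher in both and blue genes lower in both, Myh4 and Nmrk2 lie at the upper right, Tenm4 and Dync1i1 at the lower left, and Myh3 and Myog near the centre.

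The genes most strongly higher in late cells of both libraries included genes of the sarcomere and of metabolism. Nmrk2, a muscle-rich kinase that makes NAD from nicotinamide riboside, led with 55.6 CPM in late cells and 18.0 in intermediate cells of F/R/C+CP (log2 ratio 1.63, interval 1.49 to 1.77). Within F/R/C, Nmrk2 stood at 88.6 and 20.9 CPM (log2 ratio 2.08, interval 1.62 to 2.56). Ankrd2, a stretch-responsive ankyrin repeat protein, stood at 311.7 CPM in late cells and 109.3 in intermediate cells of F/R/C+CP, and at 104.0 and 24.9 CPM within F/R/C. Myoz1 and Tcap, both Z-disc proteins, stood at 330.7 and 133.5 CPM in late cells, against 131.6 and 53.9 CPM in intermediate cells of F/R/C+CP. Both were also higher in F/R/C, with log2 ratios of 2.13 and 1.39.

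Car3, a carbonic anhydrase abundant in slow muscle, was the highest of these 10 genes, with 1779 CPM in late cells and 627.2 in intermediate cells of F/R/C+CP, and 1363 and 436.5 CPM in F/R/C. Casq1, the calcium-binding protein of the fast-fiber sarcoplasmic reticulum, stood at 475.4 and 201.4 CPM in late and intermediate cells of F/R/C+CP, and at 277.0 and 80.0 CPM within F/R/C. Ppp1r27, a regulatory subunit of protein phosphatase 1, stood at 153.2 and 54.4 CPM within F/R/C+CP and at 99.8 and 25.2 CPM within F/R/C. Lgals3, which encodes galectin-3, a sugar-binding protein, stood at 516.9 and 200.7 CPM within F/R/C+CP and at 442.3 and 164.0 CPM within F/R/C. The remaining 2 of the 10, Myf6 and Myh4, are described with their groups.

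Single cells differed in how far they carried these genes. Casq1 had a median of 3.89 UMIs per 10000 in late cells of F/R/C+CP (highest 22.9) and 6.596% of these cells had none, against a median of 0.580 and 28.9% in intermediate cells. In the shallower F/R/C library, 55.7% of late cells and 77.0% of intermediate cells had no Casq1 UMI. Nmrk2 was absent from 48.2% of late cells and 72.4% of intermediate cells of F/R/C+CP. These shares without a UMI are of unthinned cells, and late cells of F/R/C+CP were deeper (medians of 41277 and 27511.5 UMIs). Casq1 was not thinned. At a common 2000 UMIs per cell, Nmrk2 was seen in 9.51% of late cells and 2.80% of intermediate cells of F/R/C+CP, against 0.207% of its Pax7-positive cells. Those shares were 12.4%, 3.23% and 0.299% in F/R/C, after 32 late and 73 intermediate cells with fewer UMIs were left out, and unthinned they were 29.0%, 12.5% and 0.442%. Cells of F/R/C+CP rich in melanocyte markers had Nmrk2 in 2.67% at 2000 UMIs (interval 0.325 to 9.30%), near the share of its intermediate cells. Nmrk2 was thus counted in a part of the late cells at this depth.

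The genes most strongly lower in late cells of both libraries included genes of the cell surface and of signalling, and several of them were at their highest in intermediate cells. Tenm4, a teneurin of the cell surface, stood at 20.8 CPM in late cells and 91.2 in intermediate cells of F/R/C+CP (log2 ratio -2.13, interval -2.24 to -2.03), and at 18.8 and 80.0 CPM within F/R/C (log2 ratio -2.09, interval -2.72 to -1.51). Marcks, a substrate of protein kinase C at the membrane, stood at 32.5 and 144.6 CPM in late and intermediate cells of F/R/C+CP, and Ptprk, a receptor tyrosine phosphatase, at 12.3 and 51.2 CPM. Both were in the same direction in F/R/C, with log2 ratios of -1.66 and -2.32. Rfx3, a transcription factor of cilium genes, and Cdk14, a cyclin-dependent kinase, had log2 ratios of -2.03 and -1.98 in F/R/C+CP and of -2.20 and -1.81 in F/R/C.

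Cck, which encodes the peptide hormone cholecystokinin, stood at 15.3 CPM in late cells, 53.9 in intermediate cells and 13.2 in the rest of F/R/C+CP, and at 22.3, 131.6 and 36.5 CPM within F/R/C. Chrm3, the muscarinic acetylcholine receptor M3, stood at 10.1, 59.0 and 13.4 CPM in late, intermediate and remaining cells of F/R/C+CP, and at 54.4, 155.7 and 20.8 CPM within F/R/C. Cavin2, a coat protein of caveolae, stood at 88.4, 313.7 and 172.5 CPM within F/R/C+CP and at 46.7, 205.8 and 120.5 CPM within F/R/C. Spg21, also called maspardin, followed the same order with 78.3, 251.9 and 143.8 CPM in F/R/C+CP, and Dync1i1, a dynein chain, had log2 ratios of -1.85 and -3.00. Cck, Chrm3, Cavin2 and Spg21 were thus higher in intermediate cells than in late cells or the rest. Of the 368 genes lower in both libraries, 58 (15.8%) were at least 1.5-fold higher in intermediate cells than in the rest in both, while 154 were at least 1.5-fold higher in the rest than in intermediate cells.

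Finer groups by Acta1 showed where each gene changed. Across Acta1 from 0 to under 25, 25 to under 50, 50 to under 100, 100 to under 200 and 200 or more per 10000, Ankrd2 stood at 18.8, 50.4, 142.0, 272.5 and 497.0 CPM within F/R/C+CP and at 2.05, 8.87, 34.1, 85.4 and 255.2 CPM within F/R/C. Its level was higher in each group than in the one before. Myh3 stood at 329.3, 2328, 3156, 3600 and 3393 CPM within F/R/C+CP and at 52.7, 1476, 2332, 2448 and 2654 CPM within F/R/C, and so had reached most of its late level by 50 to under 100. Myog, the differentiation factor, stood at 488.8, 1185, 1058, 1040 and 1126 CPM within F/R/C+CP and at 520.2, 1677, 1873, 1740 and 1448 CPM within F/R/C. Cavin2 stood at 172.5, 411.9, 259.2, 100.4 and 31.7 CPM within F/R/C+CP, highest from 25 to under 50 and lowest in the 184 cells with 200 or more. Cck did likewise at 13.2, 64.5, 48.0, 17.7 and 4.11 CPM in that library. In F/R/C the highest group held only 28 cells.

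**Figure D3:**
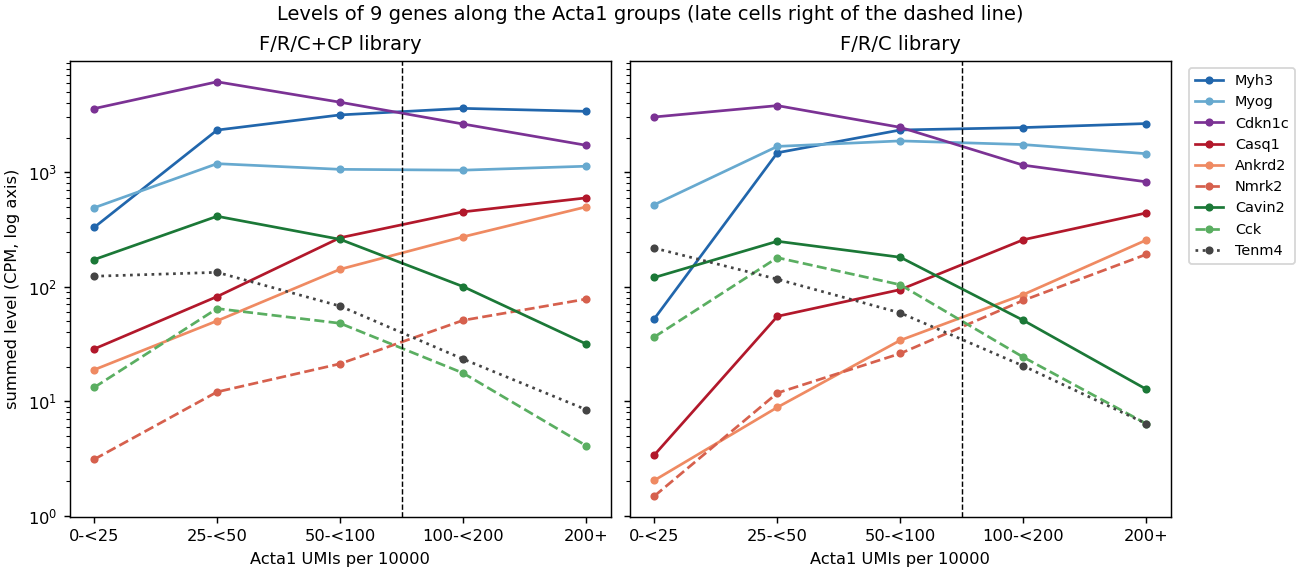
Summed level (CPM, log axis) of 9 genes in 5 groups of Acta1 UMIs per 10000, low to high, in the F/R/C+CP library (left) and the F/R/C library (right). Late cells lie right of the dashed line, where Ankrd2, Casq1 and Nmrk2 are at their highest and Cavin2, Tenm4 and Cdkn1c are at their lowest. Myh3 and Myog are there close to their level in the neighbouring intermediate group. Cck in F/R/C+CP is at its lowest only in the highest Acta1 group, and its first late group lies above the lowest Acta1 group.

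Among the sarcomeric myosin heavy chains, the motor proteins of the thick filament, 4 of 8 measured genes were called higher in F/R/C+CP and 4 of 6 in F/R/C, 0 were called lower, and the list medians were 0.60 and 0.78 on the log2 scale. Beside this and the list counts that follow stand the shares over all genes. These were 5.45% higher and 23.9% lower in F/R/C+CP, and 5.26% and 9.6% in F/R/C. Myh4, the heavy chain of the fastest adult fibers, stood at 268.6 CPM in late cells and 98.0 in intermediate cells of F/R/C+CP (log2 ratio 1.45, interval 1.40 to 1.51). Myh4 of F/R/C stood at 198.1 and 36.4 CPM (log2 ratio 2.44, interval 2.11 to 2.79). Myh1, another adult fast form, stood at 898.6 and 564.3 CPM within F/R/C+CP and at 1258 and 766.4 CPM within F/R/C. Embryonic Myh3 stood at 3564 and 2861 CPM in late and intermediate cells of F/R/C+CP (log2 ratio 0.32) and at 2471 and 2019 CPM within F/R/C (log2 ratio 0.29), and was called in neither library. Perinatal Myh8 and slow Myh7 had log2 ratios of 0.53 and 0.37 in F/R/C+CP, under the limit, and of 0.89 and 0.84 in F/R/C, past it.

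The makeup of the myosin heavy chain UMIs differed accordingly. Myh3 gave 52.7% of them in late cells and 57.8% in intermediate cells of F/R/C+CP, and 42.7% and 52.6% in those of F/R/C. Myh4 gave 3.98% and 1.98% in late and intermediate cells of F/R/C+CP, and 3.43% and 0.949% in F/R/C. Counted per cell, Myh3 was the most abundant heavy chain in 90.9% of 1031 late cells of F/R/C+CP (interval 89.0 to 92.6%) and 93.1% of 951 intermediate cells. Within F/R/C, it led in 58.5% of 159 late cells with at least 10 heavy chain UMIs (interval 50.4 to 66.2%) and in 72.2% of 248 intermediate cells. Myh8 led in 28.3% of those 159 late cells and Myh1 in 12.6%. Of the adult fast forms, Myh1 and Myh4 were called higher in late cells of both libraries and Myh2 in neither, with log2 ratios of 0.53 and 0.54 and a share of 0.656% in late and 0.621% in intermediate cells of F/R/C+CP. Embryonic Myh3 still led in most late cells.

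**Figure D4:**
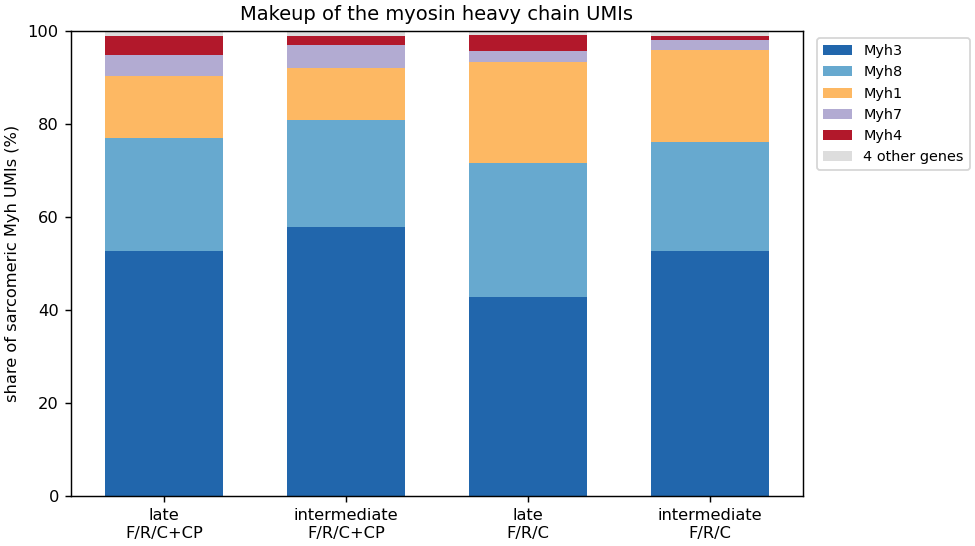
Share of the UMIs of 9 sarcomeric myosin heavy chain genes (%, vertical axis) in late and intermediate cells of each library. Myh3 takes 52.7% in late and 57.8% in intermediate cells of F/R/C+CP, and 42.7% and 52.6% in F/R/C.

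Among the myosin light chains and their kinases, 6 of 8 measured genes were higher in late cells of F/R/C+CP and 4 of 5 in F/R/C, and 0 were lower. Myl1 and Mylpf, the essential and regulatory light chains of fast muscle, stood at 17763 and 17458 CPM in late cells of F/R/C+CP, against 9241 and 8422 CPM in intermediate cells. For F/R/C, their log2 ratios were 0.89 and 0.86. Myl4, an embryonic and atrial light chain, was also higher, with 9736 and 4940 CPM in late and intermediate cells of F/R/C+CP and 7631 and 4726 CPM in F/R/C. Mylk4, a myosin light chain kinase, stood at 385.8 and 385.9 CPM within F/R/C+CP. The light chains therefore showed larger ratios than embryonic Myh3 beside them.

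Troponins, the calcium switch of the thin filament, were higher in 5 of 7 measured genes in F/R/C+CP and in 6 of 7 in F/R/C. Tnnc2, the fast troponin C, stood at 8818 CPM in late cells and 3981 in intermediate cells of F/R/C+CP, and at 6127 and 3038 CPM within F/R/C. Tnnt3 stood at 3151 and 1962 CPM within F/R/C+CP and at 1905 and 1113 CPM within F/R/C. Tnnt2, the cardiac form that embryonic muscle also makes, had log2 ratios of 0.42 and 0.36, which passed the limit in neither library.

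Of the other thin filament genes, 9 of 12 measured were higher in F/R/C+CP and 4 of 11 in F/R/C. Tpm1, a tropomyosin, stood at 7334 CPM in late cells and 3711 in intermediate cells of F/R/C+CP, and at 4545 and 2270 CPM within F/R/C. Actc1, the cardiac α-actin that precedes Acta1 in developing muscle, stood at 6655 and 5914 CPM within F/R/C+CP (log2 ratio 0.17) and at 3912 and 3611 CPM within F/R/C (log2 ratio 0.12). Neb, the giant nebulin that spans the thin filament, had log2 ratios of 0.21 and 0.16, and Lmod3, which seeds actin filaments, of 0.04 and 0.09. Ttn, the titin that spans from Z-disc to M-band, stood at 6761 and 5749 CPM in late and intermediate cells of F/R/C+CP (log2 ratio 0.23) and at 4175 and 4052 CPM within F/R/C (log2 ratio 0.04). Mybpc1, a myosin binding protein, had log2 ratios of 1.0 and 1.29. In the list of titin and myosin binding proteins, 2 of 5 measured genes were higher in F/R/C+CP and 1 of 4 in F/R/C.

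Z-disc and M-band genes were higher in 9 of 23 measured in F/R/C+CP and in 9 of 22 in F/R/C, and 0 were lower. Pdlim3, which binds α-actinin, stood at 704.8 CPM in late cells and 393.4 in intermediate cells of F/R/C+CP, and at 521.9 and 318.3 CPM within F/R/C. Actn2, the α-actinin that binds actin to the Z-disc, had log2 ratios of 0.43 and 0.23. Ankrd1, a relative of Ankrd2, had log2 ratios of 0.55 and 0.07, against 1.51 and 2.06 for Ankrd2. Of the 8 genes of myosin folding and sarcomere turnover, Klhl40, which stabilizes thin filament proteins, was the only one called higher, with log2 ratios of 1.0 and 0.98, and Trim55, a sarcomere ubiquitin ligase, had ratios of -0.58 and -0.49.

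Excitation-contraction coupling links the surface membrane to calcium release, and 5 of 24 measured genes were higher in F/R/C+CP and 5 of 23 in F/R/C. Beside Casq1, Cacng1, the γ subunit of the muscle calcium channel, stood at 543.8 CPM in late cells and 278.1 in intermediate cells of F/R/C+CP, and at 341.9 and 178.8 CPM within F/R/C. Casq2, the slow and cardiac calsequestrin, had log2 ratios of 0.38 and 0.16, against 1.24 and 1.79 for Casq1. Pvalb, the calcium buffer of fast fibers, stood at 33.1 and 18.3 CPM within F/R/C+CP and at 46.0 and 5.77 CPM within F/R/C (log2 ratio 3.0, interval 2.19 to 3.88). Ryr3, a calcium release channel of immature muscle, stood at 107.6 and 182.1 CPM in late and intermediate cells of F/R/C+CP, where it was called lower, and had a log2 ratio of -0.34 in F/R/C. Of the list, 1 gene was lower in F/R/C+CP and 0 in F/R/C.

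Acetylcholine receptor and synapse genes were higher in 3 of 10 measured in F/R/C+CP and in 0 of 8 in F/R/C. Chrna1, the receptor's α subunit, had log2 ratios of 0.77 and 0.51. Of the 13 genes of the dystrophin complex, 0 were called lower in either library, and Sspn, which encodes sarcospan, was called higher in F/R/C (log2 ratio 0.69) and had a log2 ratio of 0.57 in F/R/C+CP. Dmd, which encodes dystrophin, stood at 569.3 CPM in late cells and 762.5 in intermediate cells of F/R/C+CP (log2 ratio -0.42), and at 1324 and 1340 CPM within F/R/C (log2 ratio -0.02).

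Of the myogenic factors and their partners, 2 of 11 measured were higher in F/R/C+CP, while 1 of 10 was higher and 1 lower in F/R/C. Myf6, the latest factor of the MyoD family, was called higher in both, at 161.4 CPM in late cells and 57.1 in intermediate cells of F/R/C+CP (log2 ratio 1.5, interval 1.42 to 1.58), and at 76.7 and 26.3 CPM within F/R/C (log2 ratio 1.54, interval 1.10 to 1.99). At 2000 UMIs per cell it was seen in 24.2% of late cells and 7.87% of intermediate cells of F/R/C+CP, against 2.48% of Pax7-positive cells, and unthinned in 80.0%, 48.2% and 16.5%. Cells rich in melanocyte markers had Myf6 in 4.0% at 2000 UMIs and in 26.7% unthinned. Myog stood at 1055 and 1103 CPM in late and intermediate cells of F/R/C+CP and at 1708 and 1801 CPM within F/R/C. It was seen in 77.3% of late and 75.7% of intermediate cells of F/R/C+CP thinned to 2000 UMIs, and in 86.0% and 88.9% of those of F/R/C. In F/R/C+CP it was also seen in 28% of cells rich in melanocyte markers. Unthinned, the Myog shares were 99.9% and 99.2% in F/R/C+CP and 91.0% and 88.6% in F/R/C. The unthinned share in cells rich in melanocyte markers was 88%. At 2000 UMIs, Myod1 was seen in 22.8% and 22.4% in F/R/C+CP and in 32.0% and 35.5% in F/R/C. Within F/R/C+CP, Myod1 was also seen in 12.8% of Pax7-positive cells and 6.67% of cells rich in melanocyte markers. Mef2c, a partner of these factors, had log2 ratios of -0.46 and -0.30, and Mef2a was called lower in F/R/C (380.2 and 700.4 CPM in late and intermediate cells).

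Fusion genes were either near equality or lower in late cells. Mymk, the membrane protein myomaker, stood at 565.9 CPM in late cells and 535.4 in intermediate cells of F/R/C+CP, and at 456.3 and 566.3 CPM within F/R/C. Mymx, its partner myomixer, was called lower in F/R/C+CP (165.0 and 251.8 CPM) and stood at 372.6 and 448.4 CPM within F/R/C. Jam3, a junctional adhesion molecule, stood at 47.5 and 138.8 CPM within F/R/C+CP and at 56.5 and 141.7 CPM within F/R/C, and Cdon, a surface receptor of myoblasts, had log2 ratios of -0.98 and -0.94. In all, 3 of 6 measured fusion genes were lower in F/R/C+CP and 2 of 6 in F/R/C, and 0 were higher.

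Most measured mitosis genes were called lower in late cells. Of the mitosis genes, 17 of 18 measured were lower in F/R/C+CP and 3 of 5 in F/R/C, and of the S phase genes 15 of 17 and 0 of 4. Top2a, a topoisomerase of dividing cells, stood at 18.3 CPM in late cells, 70.5 in intermediate cells and 432.2 in the rest of F/R/C+CP, and at 8.37, 35.0 and 370.5 CPM within F/R/C. Mki67, the proliferation marker, was seen in 1.65% of late cells and 5.49% of intermediate cells of F/R/C+CP at 2000 UMIs, against 27.9% of Pax7-positive cells. The F/R/C shares were 0.562% and 2.15%, against 29.0%. Unthinned, the Mki67 shares were 17.4% and 29.9% in F/R/C+CP and 1.90% and 5.40% in F/R/C. Pax7-positive cells had unthinned Mki67 shares of 64.7% in F/R/C+CP and 54.5% in F/R/C. Cells of F/R/C+CP rich in melanocyte markers had 48%. The doublet scores given above also differ between these groups, and the part of RNA from other cells was not tested.

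Of the genes of cell cycle exit, 4 of 11 measured were lower in F/R/C+CP and 3 of 10 in F/R/C, and 0 were higher. Over all genes, 23.9% were lower in F/R/C+CP and 9.6% in F/R/C. Cdkn1c, the cyclin-dependent kinase inhibitor p57, stood at 2470 CPM in late cells, 4811 in intermediate cells and 3584 in the rest of F/R/C+CP (log2 ratio of late to intermediate -0.96, interval -0.97 to -0.95). Within F/R/C, it stood at 1114, 2952 and 3029 CPM (log2 ratio -1.41, interval -1.48 to -1.33). Cdkn1a, the inhibitor p21, stood at 1897 and 1354 CPM in late and intermediate cells of F/R/C+CP (log2 ratio 0.49) and at 2207 and 2005 CPM within F/R/C (log2 ratio 0.14), called in neither. Ccnd2, a G1 cyclin, was lower in both, with log2 ratios of -1.89 and -0.91, the F/R/C value resting on few UMIs (9.77 and 18.4 CPM) and standing at 0.058 when late cells began at 200 Acta1 per 10000.

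Satellite cell genes, the genes of the muscle stem cell, were lower in 9 of 15 measured in F/R/C+CP and in 0 of 6 in F/R/C, and 1 was higher in each. Pax7 stood at 6.31 CPM in late cells, 20.5 in intermediate cells and 109.0 in the rest of F/R/C+CP, and at 9.07, 10.45 and 184.3 CPM within F/R/C, where its counts were too few to compare. At 2000 UMIs it was seen in 1.65% of late cells and 4.35% of intermediate cells of F/R/C+CP, beside 8.0% of the 75 melanocyte-marker cells of the same library (interval 2.99 to 16.6%), and the part of RNA from other cells in these shares was not tested. Unthinned, these shares were 16.4%, 28.6% and 34.7%. In F/R/C, Pax7 was seen at 2000 UMIs in 3 of 178 late cells (1.69%) and 1 of 279 intermediate cells (0.358%). The unthinned shares there were 4.76% and 6.25%. Notch genes were lower in 9 of 11 measured in F/R/C+CP and in 2 of 4 in F/R/C, among them the receptor Notch1 (log2 ratios -0.92 and -1.49) and Rbpj, the pathway's transcription factor (-0.78 and -0.79). Collagens and matrix genes were lower in 17 of 19 and in 1 of 6, and the basement membrane chain Col4a1 had log2 ratios of -1.53 and -1.56.

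**Figure D5:**
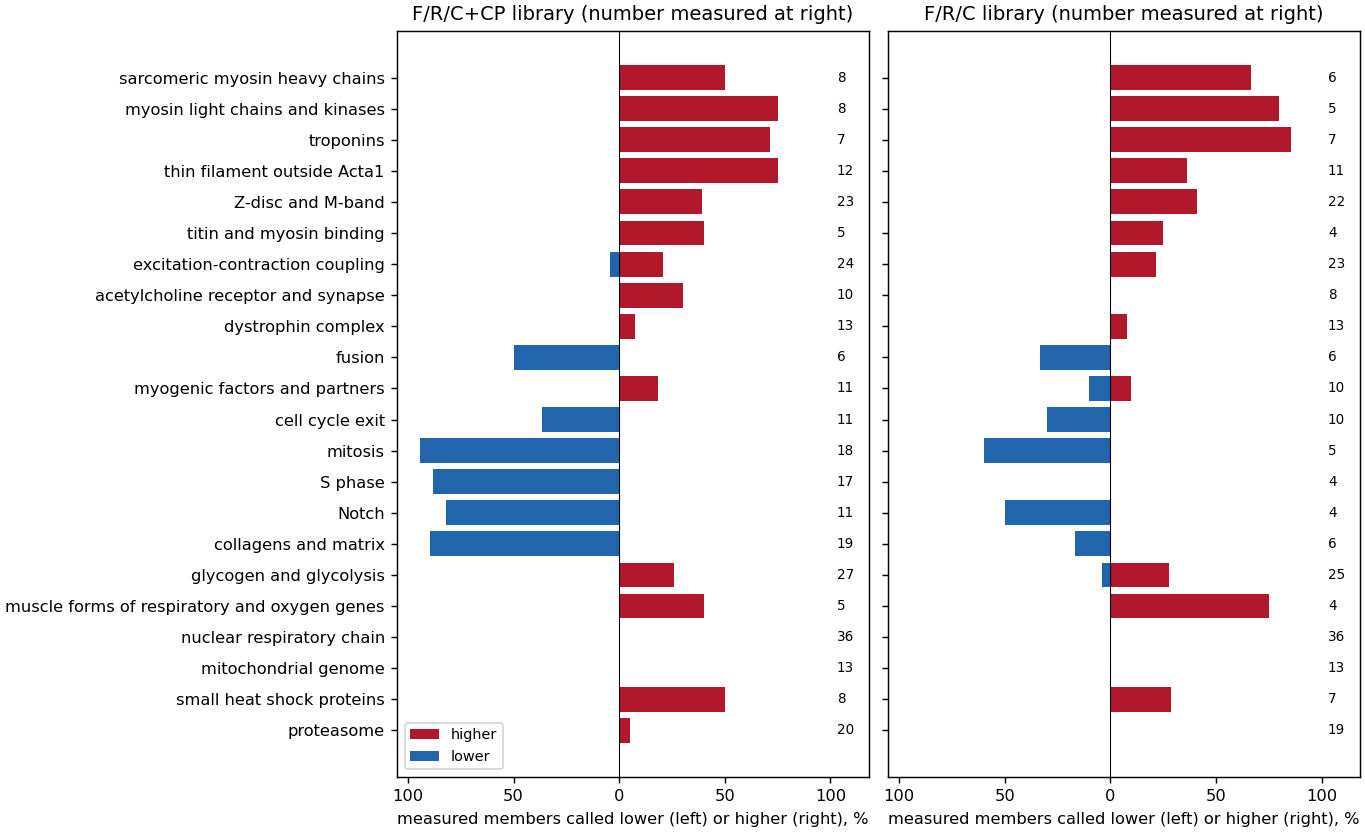
Share of the measured genes of 22 lists called higher (red, right) or lower (blue, left) in late than in intermediate cells of F/R/C+CP (left panel) and F/R/C (right panel), in percent, with the number measured at the right edge. Myosin light chains and troponins lie to the right, mitosis genes to the left, and the nuclear respiratory chain and mitochondrial genome have 0 calls.

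The muscle and brain forms of creatine kinase lay in opposite directions. Ckm stood at 200.8 CPM in late cells and 82.1 in intermediate cells of F/R/C+CP (log2 ratio 1.29, interval 1.23 to 1.35), and at 235.1 and 117.9 CPM within F/R/C (log2 ratio 1.0, interval 0.77 to 1.22). Ckb, the brain form of creatine kinase, was lower, with 168.2 and 324.9 CPM in late and intermediate cells of F/R/C+CP and 101.9 and 296.3 CPM in F/R/C. Glycogen and glycolysis genes were higher in 7 of 27 measured in F/R/C+CP and in 7 of 25 in F/R/C, and lower in 0 and 1. Pgam2, the muscle phosphoglycerate mutase, stood at 938.0 and 405.7 CPM within F/R/C+CP and at 445.8 and 178.1 CPM within F/R/C. Pgam1, its general form, which was singled out after its values were seen, had log2 ratios of -0.30 and -0.02. Eno3 and Eno1, the muscle and general enolases, chosen in the same way, had log2 ratios of 1.05 and -0.08 in F/R/C+CP and of 0.81 and 0.31 in F/R/C.

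Respiratory genes were rarely called. Of 36 nuclear genes of the respiratory chain 0 were called in either library, with list medians of 0.19 and 0.08, and of the 13 genes of the mitochondrial genome 0 were called, with medians of -0.18 and -0.14. The limit of 15% mitochondrial UMIs was set on both groups and so bounds how far the mitochondrial genes could differ. In F/R/C, 49.8% of barcodes at the late Acta1 level and 42.6% at the intermediate level were over it. Among the muscle forms of respiratory and oxygen genes, 2 of 5 were higher in F/R/C+CP and 3 of 4 in F/R/C. Mb, the oxygen carrier myoglobin, stood at 205.5 CPM in late cells and 78.3 in intermediate cells of F/R/C+CP, and at 107.4 and 51.9 CPM within F/R/C. Cox8a, the general form of a cytochrome oxidase subunit, stood at 794.4 and 1222 CPM within F/R/C+CP, where it was called lower, and had a log2 ratio of -0.27 in F/R/C.

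Small heat shock proteins, which shield the filaments, were higher in 4 of 8 measured in F/R/C+CP and in 2 of 7 in F/R/C. Hspb1 stood at 2161 CPM in late cells and 938.2 in intermediate cells of F/R/C+CP, and at 867.2 and 506.1 CPM within F/R/C. Cryab, αB-crystallin, stood at 3760 and 1930 CPM within F/R/C+CP and had a log2 ratio of 0.34 in F/R/C, under the limit. Hspd1, a chaperone inside mitochondria, was lower in both, with log2 ratios of -0.74 and -0.75. Immediate early genes were higher in 5 of 19 measured in F/R/C+CP and 5 of 13 in F/R/C, and 1 was lower in each. The stress factor Atf3 was higher, with log2 ratios of 0.93 and 1.05, while Jun had ratios of 0.39 and 0.00. Cells were loosened with trypsin before sequencing, and the part of handling was not tested. Phlda3, a p53 target, had log2 ratios of 0.88 and 0.82, and of the 12 p53 targets listed 1 of 12 measured was called higher and 1 lower in F/R/C+CP, and 2 of 8 higher and 0 lower in F/R/C.

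The late cells with few UMIs differed from the others. The 32 late cells of F/R/C with under 2000 UMIs had Myh3 at 734.2 CPM and Ttn at 1204 CPM, against 2513 and 4247 CPM in the 178 with 2000 or more, while Tnnt3 stood at 3084 and 1877 CPM. They held 34050 UMIs in total. With at least 2000 UMIs required of every cell, which left 178 late and 279 intermediate cells, 336 genes were called higher and 587 lower in F/R/C.

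Late cells of the 2 libraries also differed from each other, which gives values only, since medium, clone, depth and run cannot be told apart. On the log2 scale, with the F/R/C+CP level divided by that of F/R/C, the myosin light chain list had a median of 0.47 over 8 genes in late cells, against 2.17 in the rest, and the troponin list 0.69 over 7 genes, against 2.22 in the rest. The Acta1 level of Pax7-positive cells, given above, was higher in F/R/C+CP as well, and its part was not tested. Among late cells, Xirp2, an actin-binding protein of stressed muscle, stood at 343.1 CPM in F/R/C+CP and 31.4 in F/R/C, slow Myh7 at 312.6 and 142.3 CPM, and Ankrd2 at 311.7 and 104.0 CPM. Dmd stood at 569.3 CPM in F/R/C+CP and 1324 in F/R/C, Mymx at 165.0 and 372.6 CPM, and Myog at 1055 and 1708 CPM. The 13 genes of the mitochondrial genome had a median of -0.69.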

How the data were processed

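The authors generated single-cell libraries of 1 iMPC clone per medium with 10x Genomics 3′ v3.1 chemistry. The deposited values were UMI counts per gene and barcode. The submitters' processing notes and file headers name Cell Ranger 7.0.0, STARsolo, Seurat 4.2.1 and GRCm39. The study's methods name a correction for background RNA in F/R/C+CP, but the deposited counts were whole numbers and do not show whether it was applied to them.

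Kept barcodes had 250 to 7000 detected genes in F/R/C+CP or 250 to 4000 in F/R/C, ribosomal protein UMIs of 10 to 40% and no more than 15% mitochondrial UMIs. Counts were summed over late and over intermediate cells, scaled to CPM by the group's total, and compared by an exact conditional binomial 95% interval of the ratio. Where a group had 0 counts, a floor of 3 counts per group was used. Doublets were scored with Scrublet in scanpy 1.11.5 and not removed in the main comparison. In F/R/C its own cut-off marked 0.233% of cells, too few to rely on, so the top scores at the expected rate of 9.6% (F/R/C+CP) or 4.433% (F/R/C) were used in an alternative. The ratio interval was tested on simulated counts with counting error only. These held no variation between cells and no choice by Acta1, so they say nothing on the calls made here. Genes named in the text were the 4 markers, the 10 called higher and 10 called lower in both libraries with the largest smaller ratio and at least 50 CPM in late or intermediate cells of both, and for each of 40 lists the 4 highest in late cells of F/R/C+CP and those with the highest and lowest ratio in each library among genes at 20 CPM or more. Other genes are said to be chosen after their values were seen, and some results on single genes are not reported here. The members, lists and rules were chosen with earlier results of these data known. In all, 17 alternatives were planned and 2 were added after seeing the data. Versions were Python 3.11.15, numpy 2.4.6, scipy 1.17.1, pandas 2.3.3 and, for TMM factors, edgeR 4.0.16 in R 4.3.3. The 25828 features held 46 that share a symbol with another.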

Additional observations from a re-analysis of the deposited data

Results flagged for a closer look

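The 6 genes below were called in opposite directions in the 2 libraries when late cells were set against intermediate cells. The difference between libraries was not tested, and each gene was under 50 CPM in the late and intermediate cells of both libraries. Log2 ratios of late to intermediate cells in F/R/C+CP and in F/R/C were -0.59 and 0.70 for Rsrp1, -0.69 and 0.87 for Mgp, -1.65 and 0.81 for Ifitm3, -1.42 and 0.69 for Pde10a, and -0.82 and 1.39 for Timp1. Rhod went the other way, with 0.62 in F/R/C+CP and -0.89 in F/R/C.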

How the results depend on the processing

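No paired analysis was possible because each medium has 1 library and the labels carry no shared replicate numbers. With 1 clone per medium, nothing here says how another clone would behave, and F/R/C late cells are few and shallow.

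In F/R/C+CP, against 684 genes higher and 3002 lower, median-of-ratios scaling gave 1363 and 1914, TMM 1502 and 1782, a 2-fold limit 189 and 1246, and intermediate cells from 50 Acta1 per 10000 gave 349 and 1831. Thinning to 2000 UMIs gave 1014 lower, among fewer genes compared. In F/R/C, against 335 and 611, thinning gave 135 and 221, a minimum of 200 counts 123 and 226, a mitochondrial limit of 10% 193 and 393, and a 2-fold limit 81 and 215. There the mean of single-cell shares gave 1036 lower and intermediate cells from 50 gave 347 lower. The share of late cells from 200 Acta1 per 10000 was 1.71% in F/R/C+CP and 0.724% for F/R/C. From 100, the F/R/C share was 2.93% at a limit of 10% mitochondrial UMIs and 9.13% with no limit, the last chosen after seeing the data. Fewer genes or cells enter some of these by construction, and otherwise the cause was not tested. Ccnd2 in F/R/C turned to a log2 ratio of 0.058 with late cells from 200. Over the named genes and every alternative but the 2-fold limit, 6088 values kept their call or their lack of one. A further 133 lost a call, 243 gained one and 1, Ccnd2, reversed. The direction of genes without a call was not followed.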

Other observations

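The families in this part were chosen after their values were seen, each taken whole, and are given as values in late against intermediate cells. Over all genes, 23.9% were called lower and 5.45% higher in F/R/C+CP, and 9.6% and 5.26% in F/R/C. The Wnt effectors Tcf7, Tcf7l1, Tcf7l2 and Lef1, transcription factors that β-catenin joins, were lower in 4 of 4 measured in F/R/C+CP and in 3 of 3 in F/R/C, in media that both held the Wnt activator CHIR. Tcf7l2 stood at 11.9 CPM in late cells and 35.5 in intermediate cells of F/R/C+CP, and at 26.5 and 59.1 CPM in F/R/C. Of 9 genes of the Hippo-linked Tead group, 5 were lower in F/R/C+CP and 3 of 8 measured in F/R/C. Tead4, a DNA-binding member, stood at 67.3 CPM in late cells, 110.8 in intermediate cells and 36.1 in the rest of F/R/C+CP, and its co-activator Wwtr1 at 141.2, 227.6 and 85.7 CPM. Vgll2, a co-factor of the same group, had log2 ratios of -0.03 and 0.03.

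Semaphorins, guidance cues of the cell surface and matrix, were lower in 7 of 15 measured in F/R/C+CP and in 5 of 8 in F/R/C, and 1 was higher in F/R/C+CP, Sema4d (18.2 CPM in late cells and 11.7 in intermediate cells, log2 ratio 0.64). Sema3e stood at 46.5 CPM in late cells and 93.0 in intermediate cells of F/R/C+CP, and at 138.8 and 276.8 CPM in F/R/C. Spectrins, which line the membrane, were lower in 2 of 6 measured in F/R/C+CP and in 2 of 2 in F/R/C, and 0 were higher. Those called were Sptan1 and Sptbn1, with log2 ratios of -0.93 and -0.85 in F/R/C+CP and of -0.85 and -0.96 in F/R/C. Sptb had a log2 ratio of 0.42 in F/R/C+CP (interval 0.16 to 0.68), under the limit. Genes of cholesterol synthesis were lower in 12 of 20 measured in F/R/C+CP, and in F/R/C 3 of 13 were lower and 2 higher.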
